A study of Mus musculus with 6 samples.

Results

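The genes described here encode proteins of neutrophils and of the progenitors that make them, measured in mouse fetal liver with and without Tmod3. The 10 genes were Mpo, Elane, Prtn3, Ctsg and Ms4a3, taken as early genes, and S100a8, S100a9, Ngp, Camp and Ltf, taken as late genes. Each was found by its exact symbol in the annotation of the array, each had 1 probe set, and together they were 10 of 19938 genes tested. The samples were total RNA of 6 whole livers of C57BL/6J embryos at E14.5, hybridised to Affymetrix MoGene 1.0 ST arrays. Of these, 3 came from Tmod3-/- embryos (KO), labelled as having small livers and anemia, and 3 from Tmod3+/+ embryos (WT), labelled normal. The series text calls the embryos independent, and each gave 1 array. How the Tmod3 allele was made, and which part of the gene it removes, is not stated in any source used here.

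Neutrophils arise from granulocyte-monocyte progenitors, which the fetal liver holds alongside its far more abundant red cell precursors. Granules are filled in the order in which their proteins are made. Primary granules form first, at the promyelocyte stage, and carry myeloperoxidase and serine proteases, while secondary granules form at the myelocyte stage and carry lactoferrin and cathelicidin. S100a8 and S100a9 are made in the late stages too, but their products are cytosolic proteins and not granule contents, and Ms4a3 encodes a membrane protein that marks the progenitor stage. Tmod3 encodes tropomodulin 3, which caps the slow-growing ends of actin filaments.

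None of the 10 genes passed the test between the genotypes, and KO and WT arrays overlapped for every one of them. What the values did show was differences between single arrays, described here as 2 patterns by the array that was highest. Each embryo gave 1 array, so differences between embryos cannot be told apart from differences between arrays. S100a8, S100a9, Ctsg and Ltf were highest in KO replicate 1, and Mpo, Prtn3, Ms4a3 and Ngp were highest in WT replicate 3. For Mpo this held for the values as deposited, but not after renewed quantile normalization (2.67 there against 2.83 in KO replicate 1) or cyclic loess (2.71 against 2.84). Of all genes, 18.2% were highest in KO replicate 1 and 17.5% in WT replicate 3. Ltf lay above the floor described below on 1 array and Prtn3 on 2, so their places rest on values near background. The promoters of 3 genes from each pattern are printed first. They run from 250 bases before to 50 bases after the start of the gene, come from RefSeq on the assembly GRCm38.p6, and are written 5′ to 3′ on the strand of the gene. All 10 genes matched the promoter table. Capitals mark the letters AGGAAGT, the core bound by PU.1 and other ETS factors, and TTNNGNAA, a form of the C/EBP site, each on either strand. PU.1 and C/EBP factors are the main transcription factors of the myeloid lineage.
S100a8, chr3:90668821-90669120, plus strand: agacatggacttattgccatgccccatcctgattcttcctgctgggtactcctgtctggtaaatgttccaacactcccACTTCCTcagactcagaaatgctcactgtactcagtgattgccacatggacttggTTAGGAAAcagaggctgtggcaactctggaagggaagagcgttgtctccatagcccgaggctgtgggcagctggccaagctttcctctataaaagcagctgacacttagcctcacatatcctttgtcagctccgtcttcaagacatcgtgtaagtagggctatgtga
S100a9, chr3:90695672-90695971, minus strand: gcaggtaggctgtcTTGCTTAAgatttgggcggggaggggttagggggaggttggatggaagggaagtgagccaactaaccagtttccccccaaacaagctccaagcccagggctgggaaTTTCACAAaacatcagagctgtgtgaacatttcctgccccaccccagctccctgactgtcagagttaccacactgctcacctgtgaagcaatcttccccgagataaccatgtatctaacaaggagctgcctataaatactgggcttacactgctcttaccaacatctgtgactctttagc
Ctsg, chr14:56102525-56102824, minus strand: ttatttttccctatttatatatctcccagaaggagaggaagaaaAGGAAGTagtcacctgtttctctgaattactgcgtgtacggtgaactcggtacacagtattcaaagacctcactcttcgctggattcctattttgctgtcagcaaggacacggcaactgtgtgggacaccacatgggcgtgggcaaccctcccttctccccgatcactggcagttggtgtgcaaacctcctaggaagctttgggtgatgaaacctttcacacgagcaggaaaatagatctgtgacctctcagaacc
Mpo, chr11:87793534-87793833, plus strand: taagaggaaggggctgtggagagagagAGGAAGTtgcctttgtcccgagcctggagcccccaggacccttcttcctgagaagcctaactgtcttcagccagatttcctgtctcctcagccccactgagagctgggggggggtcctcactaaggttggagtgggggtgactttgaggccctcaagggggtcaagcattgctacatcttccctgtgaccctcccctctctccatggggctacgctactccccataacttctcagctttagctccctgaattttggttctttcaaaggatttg
Ms4a3, chr19:11640802-11641101, minus strand: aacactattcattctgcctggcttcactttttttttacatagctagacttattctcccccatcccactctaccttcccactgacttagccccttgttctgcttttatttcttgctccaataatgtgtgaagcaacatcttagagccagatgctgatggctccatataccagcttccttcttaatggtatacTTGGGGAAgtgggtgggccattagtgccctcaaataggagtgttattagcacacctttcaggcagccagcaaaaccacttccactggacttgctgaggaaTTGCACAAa
Ngp, chr9:110419558-110419857, plus strand: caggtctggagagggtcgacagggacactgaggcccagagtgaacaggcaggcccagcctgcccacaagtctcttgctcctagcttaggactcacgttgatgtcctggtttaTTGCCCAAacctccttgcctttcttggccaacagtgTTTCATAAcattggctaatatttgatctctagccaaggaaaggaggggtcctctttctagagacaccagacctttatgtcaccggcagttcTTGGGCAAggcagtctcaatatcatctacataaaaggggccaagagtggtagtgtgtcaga

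AGGAAGT was found in the window of 4 of 5 early genes, Mpo, Elane, Prtn3 and Ctsg, and of 1 of 5 late genes, S100a8. Of all 32851 promoters of 300 bases in the table, 9.35% held it. TTNNGNAA was found in 1 of 5 early genes, Ms4a3, and in 4 of 5 late genes, S100a8, S100a9, Ngp and Ltf, and in 40.7% of all promoters. The Camp window held neither, and no match of one motif overlapped a match of the other in these 10 windows. These matches are descriptions of the letters and no evidence of binding. S100a8 and S100a9 lie next to each other on chromosome 3, with 0 protein-coding genes between them, and Prtn3 and Elane do so on chromosome 10. Camp, Ngp and Ltf lie on chromosome 9, as does Tmod3, with 307 protein-coding genes between Tmod3 and Camp, so none of them is a close neighbour of the disrupted gene.

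Tmod3 itself checked the labels. It read 1.32, 2.36 and 1.30 in KO replicates 1, 2 and 3, against 4.49 to 4.90 in the WT arrays, on the log2 scale of the deposited values. Afp and Alb, which hepatocytes make, and Alas2 and Tfrc, of the red cell lineage, lay above the floor described next on all 6 arrays. Over these arrays the median of all probe sets lay between 1.36 and 1.43. To show where a value is no more than background, the 1027 olfactory receptor genes of the array were used as a floor, which are not expected in liver. Their 95th percentile was 1.40 to 1.61, depending on the array, and a value above that of its own array is called above the floor. Tmod3 was above the floor in KO replicate 2 as well as in the WT arrays, also with the 99th percentile as the floor. The reason for the signal in KO replicate 2 was not tested. Arrays have no read depth, and with 3 of them per genotype precision is limited by their number.

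Of the 10 genes, 3 lay above the floor on all 6 arrays, namely Mpo, S100a8 and S100a9, and the same count was reached with the 99th percentile as the floor. Ctsg and Ngp were above it on 5 arrays, Ms4a3 and Camp on 3, Prtn3 on 2 and Ltf on 1. Elane was above it on 0 arrays. With the 99th percentile as the floor, Ctsg was above it on 3 arrays and Ngp on 2. The comparison of genotypes therefore rests on measured signal for Mpo, S100a8 and S100a9, and in part for Ctsg and Ngp. For the other 5 it rests on values near the floor. A gene near the floor can hide a change that these arrays would not show.

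**Figure D1:**
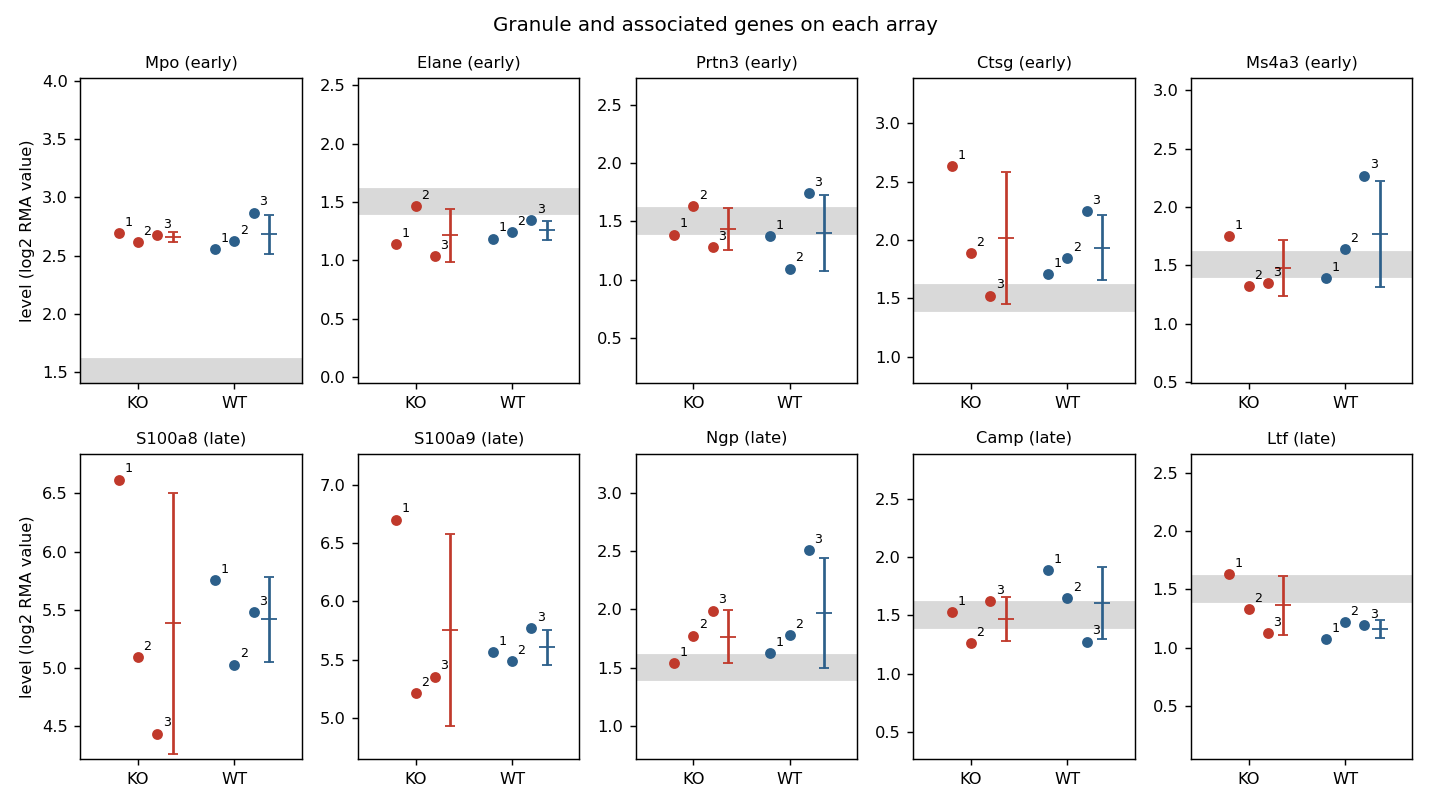
Level of each of the 10 genes (log2 RMA value) on the 3 KO arrays (red) and the 3 WT arrays (blue), with replicate numbers beside the points, group means as ticks and SD as error bars (n = 3). All panels span the same number of log2 units, the grey band is the range over arrays of the 95th percentile of olfactory receptor genes (1.40 to 1.61), and the groups overlap in every panel.

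Among the early genes, Mpo gave the steadiest reading. It encodes myeloperoxidase, an enzyme of primary granules that makes hypochlorous acid. Mpo read 2.69, 2.62 and 2.68 in KO replicates 1, 2 and 3 and 2.56, 2.62 and 2.87 in WT replicates 1, 2 and 3. The KO arrays lay inside the range of the WT arrays. The means were 2.66 ± 0.04 in KO and 2.68 ± 0.17 in WT (SD, n = 3 each), and the log2 fold change of KO minus WT was -0.02 ± 0.11 (SE, limma adjusted p = 0.975). The 95% interval of the difference ran from -0.28 to 0.24, that is from 0.82 to 1.18 times the WT level. Of all 10 genes this was the narrowest interval in the main fit. With an intensity trend and robust fitting in limma, the SE of Mpo was 0.18. That was above those of Elane, Ltf, Prtn3 and Camp (0.12 to 0.16).

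Ctsg encodes cathepsin G, a serine protease of primary granules. It read 2.64, 1.89 and 1.52 in the KO arrays and 1.71, 1.85 and 2.25 in the WT arrays, in replicate order. KO replicate 1 was the highest of the 6 and KO replicate 3 the lowest, so the KO arrays enclosed the WT arrays. Its log2 fold change was 0.08 ± 0.27 (SE, 95% interval -0.54 to 0.71, limma adjusted p = 0.958). It was -0.23 without KO replicate 1 and 0.33 without KO replicate 3.

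Ms4a3 read 1.75, 1.32 and 1.35 in KO and 1.39, 1.64 and 2.27 in WT. WT replicate 3 stood highest, and KO replicate 1 lay above both other WT arrays. With means of 1.47 ± 0.24 in KO and 1.76 ± 0.45 in WT (SD, n = 3 each), the log2 fold change was -0.29 (95% interval -0.81 to 0.23, limma adjusted p = 0.780). This was the largest negative value among the 10 genes, and without WT replicate 3 it was -0.04.

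The neighbours Elane and Prtn3 encode neutrophil elastase and proteinase 3, the other serine proteases of the primary granule. Elane read 1.14, 1.47 and 1.04 in KO and 1.19, 1.24 and 1.35 in WT, within the range of the olfactory receptor genes throughout. Prtn3 read 1.39, 1.63 and 1.28 in KO and 1.37, 1.10 and 1.74 in WT, and rose above the floor in KO replicate 2 and WT replicate 3 alone. The log2 fold changes were -0.04 for Elane and 0.03 for Prtn3 (limma adjusted p = 0.955 and 0.978). Values this near the floor do not show whether either gene differed.

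The late genes held the brightest and the most variable readings. S100a8 and S100a9 encode the subunits of calprotectin, which binds calcium and zinc and is abundant in the cytosol of neutrophils. S100a8 read 6.62, 5.10 and 4.44 in KO replicates 1, 2 and 3 and 5.75, 5.03 and 5.48 in WT replicates 1, 2 and 3. The KO arrays held both the highest and the lowest value, and the WT arrays lay between them. The means were 5.38 ± 1.12 in KO and 5.42 ± 0.36 in WT (SD, n = 3 each). Their difference on the log2 scale was -0.04 ± 0.48 (SE, limma adjusted p = 0.991). Its 95% interval ran from -1.15 to 1.08, or from 0.45 to 2.11 times the WT level, so differences of that size would not have been told from none.

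S100a9 read 6.70, 5.21 and 5.35 in KO and 5.56, 5.48 and 5.77 in WT. KO replicate 1 was again the highest, while KO replicates 2 and 3 were below all WT arrays. The means were 5.76 ± 0.82 in KO and 5.61 ± 0.15 in WT (SD, n = 3 each), and the log2 fold change was 0.15 (95% interval -0.66 to 0.95, limma adjusted p = 0.940). Without KO replicate 1 the log2 fold changes were -0.65 for S100a8 and -0.32 for S100a9, neither past the threshold. For S100a9 the sign changed with that 1 array.

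Ngp, Camp and Ltf are the genes of secondary granules. Ngp encodes neutrophilic granule protein, a relative of the cathelicidins, and read 1.54, 1.78 and 1.99 in KO and 1.62, 1.78 and 2.51 in WT. WT replicate 3 was the highest, and without it the log2 fold change moved from -0.20 to 0.07 (limma adjusted p = 0.858 with all arrays). Camp, the gene of the antimicrobial peptide cathelicidin, read 1.53, 1.26 and 1.62 in KO and 1.89, 1.65 and 1.28 in WT, and had -0.13 (limma adjusted p = 0.880). Ltf encodes lactoferrin, which binds iron. It read 1.63, 1.33 and 1.13 in KO and 1.08, 1.22 and 1.19 in WT, with a log2 fold change of 0.20 (limma adjusted p = 0.753), the largest positive value and the smallest adjusted p of the 10. Only KO replicate 1 lifted Ltf above the floor, and without that array the value was 0.07.

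**Figure D2:**
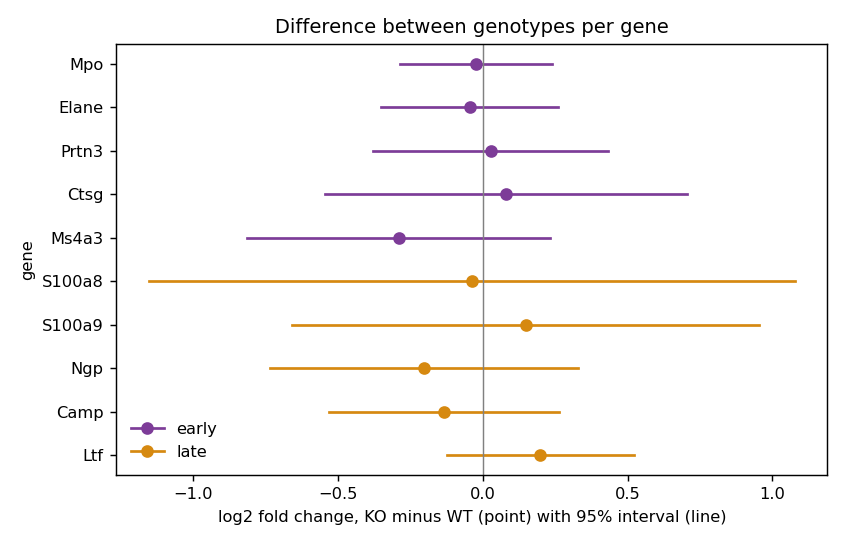
Log2 fold change of KO minus WT for each gene (points), with its 95% interval from the limma fit (lines), early genes in purple and late genes in orange. All 10 intervals include 0, that of Mpo is the narrowest (-0.28 to 0.24) and that of S100a8 the widest (-1.15 to 1.08).

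Counted together, 0 of 10 genes passed an adjusted p of 0.05 in limma, where 0.0150% of all genes did (3 of 19938, all lower in KO). At an unadjusted p under 0.05 the counts were 0 of 10 genes and 9.03% of all genes. Groups without overlap were found for 0 of 10 genes and for 13.2% of all genes, 6.14% higher and 7.10% lower in KO. Without KO replicate 1 and WT replicate 3, the arrays that stood apart, 0 of 10 passed, but in that fit of 2 against 2 arrays 0 of all genes passed, nor did Tmod3 (limma adjusted p = 0.258), so it says nothing about stability. With so few members, counts of 0 beside these shares say little by themselves. The median log2 fold change was -0.02 over the 5 early genes and -0.04 over the 5 late genes, against 0.01 over all genes tested, and 4 of the 10 values were above 0. The medians of the early and the late genes differed by less than their values moved when 1 array was left out. In whole liver RNA, fewer cells of a type and less RNA per cell cannot be told apart.

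The mean level over the early genes was 1.92, 1.79 and 1.57 in KO replicates 1, 2 and 3 and 1.64, 1.69 and 2.10 in WT replicates 1, 2 and 3. Over the late genes it was 3.60, 2.93 and 2.91 in KO and 3.18, 3.03 and 3.25 in WT. The early mean minus the late mean ran from -1.68 in KO replicate 1 to -1.15 in KO replicate 2 and in WT replicate 3. Genotypes overlapped in all 3 measures. The array with the highest late mean, KO replicate 1, was second in early mean. The array with the highest early mean, WT replicate 3, was second in late mean. S100a8 and S100a9 weighed most in the late mean of KO replicate 1, at 1.33 and 1.18 from their medians over the arrays. Of the secondary granule genes, Ltf stood at 0.42 from its median there, but Ngp at -0.24 and Camp at -0.05.

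**Figure D3:**
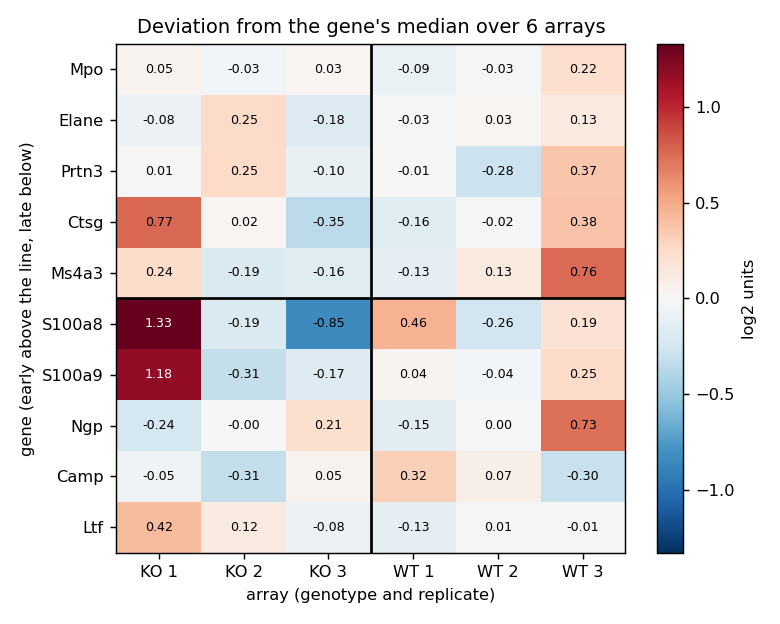
Each cell gives a gene's value on 1 array minus that gene's median over all 6 arrays, in log2 units, with KO arrays to the left of the vertical line and early genes above the horizontal line. KO replicate 1 stands out for S100a8 (1.33), S100a9 (1.18) and Ctsg (0.77), and WT replicate 3 for Ms4a3 (0.76) and Ngp (0.73).

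KO replicate 1 and WT replicate 3 each held the highest value of 4 of the 10 genes, and the other 4 arrays held that of 2. Over all genes, KO replicate 1 held the highest value of 18.2% and WT replicate 3 of 17.5%. Over the 6 arrays, S100a8 and S100a9 had a Pearson r of 0.87 (exact permutation p = 0.0222, adjusted 0.388) and a Spearman rho of 0.77 (exact permutation p = 0.103, adjusted 0.836). Adjustment was over the 45 pairs of the 10 genes. Without KO replicates 1 and 3, the arrays farthest from the median of S100a8, r was 0.59. Ctsg and S100a9 had an r of 0.88 (exact permutation p = 0.0236, adjusted 0.388) and a rho of 0.60 (exact permutation p = 0.242, adjusted 0.836). Their r was -0.19 without KO replicate 1 and WT replicate 3, so it rested on those arrays. Of the 45 pairs, 5 had an unadjusted Pearson p under 0.05 and 0 passed after adjustment.

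The second pattern joined Mpo with Ms4a3 and Ngp. Mpo and Ms4a3 had the highest r of all pairs, 0.89 (exact permutation p = 0.0278, adjusted 0.388), with a rho of 0.71 (exact permutation p = 0.136, adjusted 0.836). For Mpo and Ngp r was 0.84 (exact permutation p = 0.0681, adjusted 0.510) and rho 0.43 (exact permutation p = 0.419, adjusted 0.926). Without WT replicates 1 and 3 the r values were 0.39 and -0.24. These relations also depended on the scale of the arrays. Centred on array medians, r was 0.92 for Mpo and Ms4a3 and 0.88 for Mpo and Ngp. After the arrays were quantile normalized again, r was -0.06 for Mpo and Ms4a3 and -0.10 for Mpo and Ngp. For S100a8 and S100a9 it stayed at 0.87, and for Ctsg and S100a9 it was 0.79. On that scale Mpo read 2.67 in WT replicate 3, below the 2.83 of KO replicate 1, while Ms4a3 and Ngp stayed highest in WT replicate 3 at 2.15 and 2.36. The 90th percentile of all probe sets, 3.67 to 4.13 over the arrays as deposited, was highest in WT replicate 3.

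**Figure D4:**
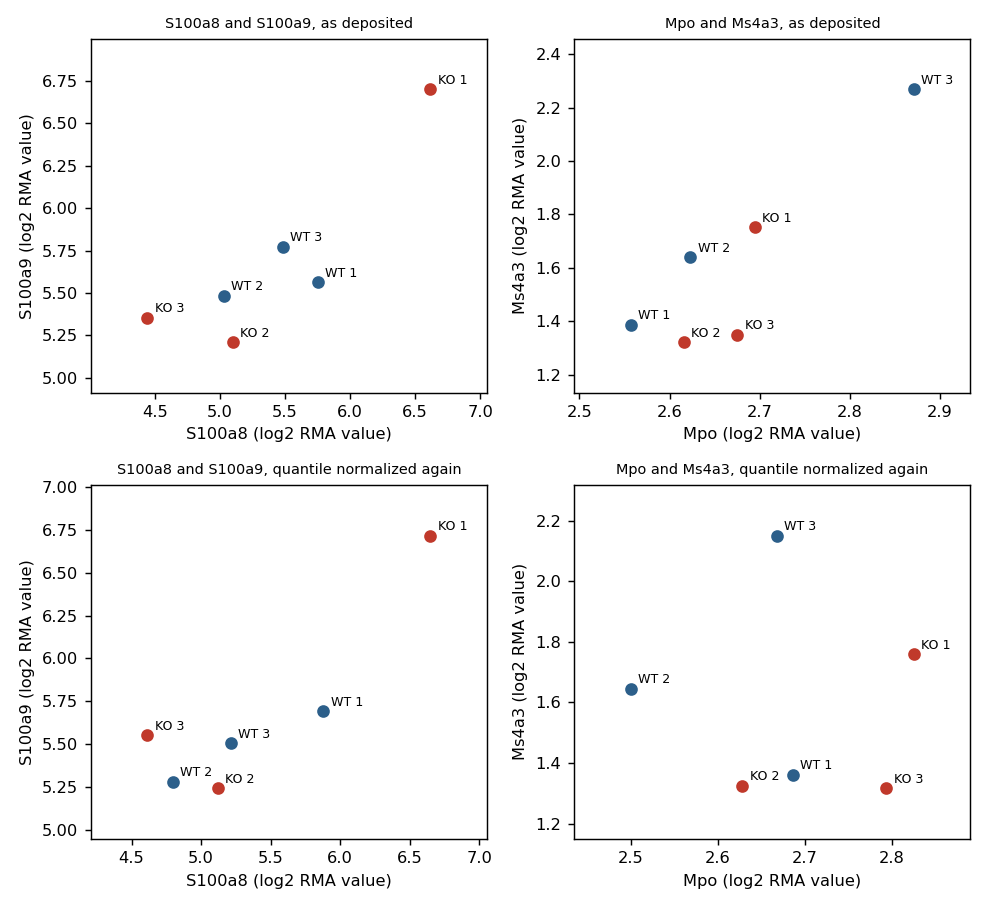
Levels (log2 RMA value) of S100a8 against S100a9 (left) and Mpo against Ms4a3 (right) on the 6 arrays, as deposited (top) and after a renewed quantile normalization (bottom), KO in red and WT in blue. KO replicate 1 lies at the upper right for S100a8 and S100a9 on both scales, while the relation of Mpo to Ms4a3 (r = 0.89) is absent on the lower scale (r = -0.06).

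The mean of the 5 early genes and the mean of the 5 late genes on each array were set against the 1428 other genes whose values spanned at least 1 log2 unit over the 6 arrays, by Pearson r over these arrays. No p is given, because the genes named are the extremes of a ranking. Closest to the mean of the late genes were Rnf125 (0.98), Igsf6 (0.97), Hsd3b6 (0.96), Teddm1b (0.95) and Cstdc6 (0.93). Since the late mean itself was highest in KO replicate 1, the ranking favours genes highest in that array, and all 5 were highest there. Igsf6, a membrane protein gene of myeloid cells that is also among the further early genes below, read 3.67 there and 2.50 to 3.14 on the other arrays. Cstdc6 read 3.09 in KO replicate 1 and 1.02 to 1.68 elsewhere. Closest to the mean of the early genes were Cstb (0.99), which encodes the protease inhibitor cystatin B, Smim7 (0.98), Commd6 (0.98), Fam136a (0.96) and Gipc2 (0.96). All 5 were highest in WT replicate 3, which the ranking favours likewise, as the early mean was highest there.

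Other genes of the lineage were followed in lists, though whole liver RNA does not show which cells their signal came from. Of 14 further genes of the early stages, 0 passed in limma over all genes, and the median log2 fold change was -0.10. At an unadjusted p under 0.05, 2 were lower in KO and 0 higher, where 6.44% and 2.59% of all genes were. These were Serpinb1a, an inhibitor of neutrophil serine proteases, with a log2 fold change of -0.54 (limma adjusted p = 0.517), and Lyz2, the lysozyme gene, with -0.75 (0.537). Lyz2 read 2.30, 2.34 and 1.71 in KO and 2.45, 2.55 and 3.63 in WT, so the groups did not overlap, yet WT replicate 3 stood apart from the rest. Without that array the values were -0.38 for Lyz2 and -0.33 for Serpinb1a. Plac8, a progenitor gene, had -0.69 (limma adjusted p = 0.638), and -0.25 without WT replicate 3. Calr, the calreticulin gene, had 0.24 (limma adjusted p = 0.591), and 0.16 without KO replicate 1. Of these 14 genes 6 were highest in KO replicate 1 and 4 in WT replicate 3, where 18.2% and 17.5% of all genes were.

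Of 29 further genes of late neutrophils, 25 were measured, 0 passed, and the median was 0.05. On 0 arrays did 8 of them rise above the floor, among them Ly6g, the surface marker of mouse neutrophils, whose values were 0.91 to 1.11. Anxa1, the annexin A1 gene, had -0.62 (limma adjusted p = 0.478) and Pglyrp1, a peptidoglycan recognition protein gene, -0.30 (0.520), the 2 with an unadjusted p under 0.05. They had -0.40 without WT replicate 3 and -0.19 without WT replicate 1, in that order. Cyba and Ncf1, of the oxidase that makes superoxide, had 0.25 (limma adjusted p = 0.627) and 0.22 (0.633). Cyba was above the floor on 4 arrays and Ncf1 on 1. Other genes of that oxidase in the list, Cybb and Ncf4, had -0.05 and 0.07. KO replicate 1 was the highest array for 9 of the 25, and for 18.2% of all genes. Several of the 9, Ly6g among them, were below the floor of that array. At 1.61 this was the highest floor of the 6 arrays.

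None of the regulators of granulocyte formation passed the test. Of 14 measured, 0 passed in limma, 0 had an unadjusted p under 0.05, and the median was -0.01. Cebpa and Cebpe, the C/EBP factors of the progenitor and of the secondary granule stage, had 0.02 and -0.06 (limma adjusted p = 0.973 and 0.936). Gfi1, a repressor needed for neutrophil formation, had -0.03, Spi1, the PU.1 gene, -0.01, and Csf3r, the receptor of G-CSF, -0.11 (limma adjusted p = 0.979, 0.992 and 0.832). Cebpe and Csf3r were above the floor on 0 arrays and Gfi1 on 1. Of the 14 regulators, 5 were above it on all 6 arrays. The smallest p among the regulators belonged to Csf2rb (0.24, limma adjusted p = 0.591) and Klf4 (0.34, 0.613, and 0.19 as log2 fold change without KO replicate 1), followed by Myb (-0.15, 0.738).

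Markers of other blood cells are given beside these patterns, and their part in them was not tested. The 15 measured monocyte and macrophage markers had a mean level of 1.94, 1.90 and 1.57 in KO and 1.96, 2.01 and 2.13 in WT, so KO replicate 1 did not stand out there while WT replicate 3 was highest. The mean level of the 8 progenitor markers was highest in WT replicate 3 as well, at 1.78 against 1.46 to 1.60 elsewhere. Of these 8 markers 3 were highest there, where 17.5% of all genes were. Only 1 of the 8 lay above the floor on all 6 arrays. Of 10 red cell markers 0 passed in limma, 10 had a log2 fold change below 0 (median -0.49), and 5 had groups without overlap. Of 10 hepatocyte markers 0 passed, 8 were below 0 (median -0.73), and 4 had groups without overlap. In each list 6 had an unadjusted p under 0.05 with the lower mean in KO, where 6.44% of all genes did. All the groups without overlap in these 2 lists were lower in KO, as were those of 7.10% of all genes. In each list 9 of 10 lay above the floor on all 6 arrays, where 5589 of 19938 genes did, so these shares include many dim genes. The 90th percentile of all probe sets was 3.67 to 3.82 in KO and 3.68, 4.07 and 4.13 in WT, and its part in these differences was not tested. The mean level of the hepatocyte markers was lowest in KO replicate 3, at 5.66 against 6.54 to 7.08 elsewhere. KO replicate 3 was also the array with the lowest S100a8 and Ctsg.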

How the data were processed

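The authors deposited log2 values, 1 for each probe set on each array, from RMA (robust multi-array average, which corrects background, normalizes by quantiles and summarises probes), per the submitters' processing notes. No version or log base is given in the sources used here. Base 2 was read from the range, since base e would put the brightest values (127417 and more) past any scanner limit. The quantiles of the 6 arrays differ, so another step may have followed. Of 28853 probe sets, 21789 had 1 gene symbol, and the brightest per gene gave 19938 genes. KO was compared with WT in limma 3.58.1 (R 4.3.3; lmFit, eBayes, two-sided, no covariates), with Benjamini-Hochberg adjustment over all genes, a threshold of 0.05 and 95% intervals from the fit. The fit was tested on simulated data. Correlations used exact permutation of 6 arrays. The series text calls the embryos independent, so no replicate block was used. The deviations of same-numbered arrays had correlations of 0.14, 0.06 and -0.10 for numbers 1, 2 and 3, too few to decide on pairing. The genes, lists and motifs were chosen with earlier results of these data known. Named are all 10 genes, Tmod3, up to 4 genes per pathway list by smallest p, 5 regulators and the 5 genes most like the early and the late mean; tissue markers, Igsf6, Cstdc6 and Ly6g as examples were picked with their values seen. The floor from olfactory receptor genes was added after the data were seen.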

Additional observations from a re-analysis of the deposited data

How the results depend on the processing

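None of the 10 genes passed under any of the 158 gene and setting combinations tried (limma). The fits with the replicate block, without WT replicate 2, and without KO replicate 1 and WT replicate 3 called 0 of all genes, so they say nothing about stability. The fits without KO replicate 1, KO replicate 3 or WT replicate 3 called 1, 2 and 2 of all genes, and Tmod3 was not called. They therefore say little about it either. Over the combinations 26 changed the sign of a log2 fold change. The cause was not tested. Signs changed with renewed quantile normalization for Mpo (0.13) and S100a8 (0.16), and with cyclic loess for Mpo (0.13), S100a8 (0.17), Prtn3 (-0.0009) and Spi1 (0.0265). They changed with centring on array medians for Prtn3 (-0.0082) and Cebpa (-0.0136), and with array weights for S100a8 (0.14), Cebpe (0.0176) and Spi1 (0.048). Without KO replicate 1 and WT replicate 3 together, an alternative chosen after seeing the data, the values were 0.06 for Mpo, 0.04 for Elane, -0.07 for Ctsg, -0.24 for S100a9 and 0.18 for Ngp, all of changed sign, and 0.22 for Prtn3 and -0.33 for Camp. Correlations after cyclic loess and renewed quantile normalization were -0.0128 and -0.0562 for Mpo with Ms4a3, and -0.10 after the latter for Mpo with Ngp.

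Leaving out 1 array at a time gave log2 fold changes from -0.0852 to 0.0717 for Mpo, -0.17 to 0.044 for Elane, -0.13 to 0.20 for Prtn3, -0.23 to 0.33 for Ctsg and -0.65 to 0.44 for S100a8. The ranges were -0.32 to 0.42 for S100a9, -0.38 to 0.07 for Ngp, -0.30 to 0.0089 for Camp, -0.0262 to 0.10 for Cebpa, -0.14 to 0.048 for Cebpe, -0.22 to 0.0791 for Gfi1 and -0.0658 to 0.093 for Spi1. The medians ran from -0.16 to 0.32 for the late genes, the highest without KO replicate 3, and from -0.28 to -0.0334 for the further early genes, the lowest without KO replicate 1. The count of all genes called ran from 0 (without WT replicate 2) to 95 (without WT replicate 1). It was 6 after renewed quantile normalization, 8 after cyclic loess, 11 with array weights, 0 without KO replicate 1 and WT replicate 3, and 0 with the replicate number as a block, against 3. Whether the numbers pair the embryos cannot be decided from so few arrays. KO replicate 2 deviated more closely with WT replicate 3 (0.19) than with WT replicate 2 (0.06). KO replicate 1 deviated most closely with WT replicate 1 (0.14). The Tmod3 call ended with the block (limma adjusted p = 0.0897) and without KO replicate 1 (0.0911) or 3 (0.109) or WT replicate 2 (0.255) or 3 (0.0856), and without KO replicate 1 and WT replicate 3 together (0.258). Of the dim genes, Elane and Ltf lay below the median of all probe sets and dropped out under that filter.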

Other observations

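Of 7 measured eosinophil markers, 5 were above the floor on 0 arrays, and of 12 mast cell and basophil markers, 10 were. Prg2, an eosinophil granule protein gene named here after its values were seen, was above it on all 6 arrays, at 1.91 to 2.64. Within the first list Prg3, a related granule protein gene, had a log2 fold change of -0.17 and Il5ra, a receptor gene, 0.21 (limma adjusted p = 0.793 and 0.735). Within the second, Mcpt1, a mast cell protease gene, had 0.27 and Cpa3, the mast cell carboxypeptidase gene, -0.52 (limma adjusted p = 0.506 and 0.554). Prg3, Il5ra and Mcpt1 were above the floor on 0 arrays, so their values are at background. Cpa3 read 1.58, 1.65 and 1.95 in KO and 1.95, 1.99 and 2.78 in WT, and WT replicate 3 was the highest, as for Ms4a3 and Ngp. Without that array its log2 fold change was -0.25. In both lists 0 genes passed in limma, and at an unadjusted p under 0.05 the counts were 0 of 7 and 1 of 12, where 9.03% of all genes were.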
